A study of Mus musculus with 4 samples.

Results

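The genes described here are those of mouse whose symbol in the array's probe annotation is Cd followed by a number, with or without a letter or a letter and a digit behind it. Among 18193 named genes, 73 had such a symbol once Cd2ap, Cd2bp2, Cd14, Cd40, Cd44, Cd74, Cd80, Cd84, Cd86 and Cd274 were set aside, and 33 of the 73 exceeded the signal floor on at least 1 array, out of 9865 genes of the series that did so. For a gene with several probe sets the one brightest on average was read, and the floor was the 60th percentile of all values, a log2 signal of 6.80. No difference between groups was used to choose the members. Of the 33, 26 were above the floor on all 4 arrays, and the other 7 passed through only some of them, so that for these 7 (Cd244a, Cd83, Cd247, Cd34, Cd28, Cd180 and Cd320) a difference between arrays was partly fixed by the choice.

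The neutrophils came from the bone marrow of C57BL/6 mice of 8 weeks, isolated with a commercial neutrophil kit and kept in medium with serum. The 4 groups were miR-125a-/- cells with lipopolysaccharide (LPS, a cell wall component of Gram-negative bacteria) for 3 h, miR-125a+/+ cells with LPS for 3 h, miR-125a-/- cells without LPS and miR-125a+/+ cells without LPS; the miR-125a-/- cells are called knockout and the miR-125a+/+ cells wild type. The labels do not say how the miR-125a allele was made. They also leave unsettled whether unstimulated cells spent the same 3 h in culture, giving them as 0 h in one place. RNA of 3 experiments was pooled for each group and hybridised to 1 array, so differences stand without replicates or tests, and precision is limited by having 1 array per group.

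CD numbers, for cluster of differentiation, were given to leukocyte surface molecules as antibodies that bound the same molecule were grouped together. The name therefore joins proteins of unlike structure and function, among them tetraspanins that organise other membrane proteins into patches, immunoglobulin-type receptors that restrain or promote activation, small glycolipid-anchored proteins, mucins, lectins and the signalling chains of lymphocyte antigen receptors. Neutrophils are known to carry many of them, and changes of such molecules at the surface are widely used to read the state of a leukocyte. An array measures the transcript and not the protein at the surface.

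The microRNA that the knockout mice lack was not measured here, which leaves the genotype labels unchecked. Its main mature strand is shown because every genotype comparison turns on it (RefSeq, GRCm38.p6, chr17:17830817-17830840, plus strand), with its seed, bases 2 to 8, in capitals.
mmu-miR-125a-5p: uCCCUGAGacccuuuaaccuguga

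On the 4 arrays, between 37.8% and 41.5% of 45101 probe sets lay above the floor. Of 12 genes listed as neutrophil markers 10 were matched, and all 10 were above the floor on every array. Under the floor on all arrays were all 6 matched NK cell markers, 5 of 6 T cell markers and 6 of 10 B cell markers. Several other lists differed with LPS. Monocyte and macrophage markers summed to signals of 39716 and 41376 on the knockout and wild-type LPS arrays, against 27710 and 27588 on the unstimulated arrays, with Csf1r and Adgre1 higher, Ccr2 and F13a1 lower, and C1qa, C1qb and C1qc under the floor on all arrays. Fn1 was also lower (log2 -0.79 in knockout and -0.92 in wild-type cells), and Ms4a7 exceeded the floor only on the wild-type LPS array. The median log2 difference of that list was -0.79 in knockout and -0.29 in wild-type cells. Erythroid markers summed to 286 and 257 with LPS, against 2174 and 1222 without, on the same pairs of arrays. Dendritic cell markers summed to 1352 and 1348 with LPS, against 925 and 1015 without. Of the 6 matched only H2-Aa and H2-Ab1 were above the floor, and H2-Ab1 was called higher in both genotypes (1.0004 and 1.61). Platelet markers summed to 566 and 718, against 864 and 1138, with Ppbp, Gp9, Gp5 and Treml1 under the floor. Pf4 was lower in both genotypes, while Itga2b was higher in knockout (bound of 0.89) and lower in wild-type cells (-0.33). Stem and progenitor markers summed to 554 and 723, against 810 and 973, with Meis1 under the floor. Sox4 was called lower in both genotypes and Hoxa9 was lower, whereas Kit was level and Gata2 higher in wild-type cells (0.65).

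LPS was followed by higher signals of a small group of surface antigens, in both genotypes. Cd69, Cd302, Cd99, Cd82, Cd151 and Cd300a were at least 2-fold higher in knockout and in wild-type cells, Cd83 was so in wild-type cells, and the natural killer cell receptor gene Cd244a, measured only through the unstimulated arrays, was at least 2-fold lower in both. In bulk samples such as these, more or fewer cells of a type and more or less RNA per cell cannot be told apart, and the part that the marker lists above have in these differences was not tested. A gene was called from a 2-fold difference (log2 1) between 2 arrays. In knockout cells 6 of the 32 measured Cd genes were called higher, where the share among all 9578 measured genes was 6.62%, and 1 was called lower, where that share was 7.99%. In wild-type cells 7 of 31 were called higher and 1 lower, where the shares among 9507 genes were 7.29% and 9.69%. Among the 26 Cd genes above the floor on all arrays, 6 were called higher and 0 lower in each genotype, where the shares among 8156 such genes were 6.35% higher and 7.45% lower in knockout and 6.98% higher and 9.32% lower in wild-type cells. The median log2 difference of the Cd genes was 0.17 in knockout and 0.08 in wild-type cells, and that of all measured genes was -0.05 and -0.03.

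These counts depended on the scale of the arrays. When the 12 poly-A spike-in probe sets set the scale, the Cd genes split into 2 of 32 higher and 4 lower in knockout cells and 4 of 33 higher and 5 lower in wild-type cells. On that scale 3.31% of all genes were higher and 24.4% lower in knockout cells, 3.64% were higher and 23.7% lower in wild-type cells, and the median of all genes moved to -0.57 and -0.52. The Cd medians were then -0.40 and -0.36. The calls of Cd82, Cd151 and Cd300a ended on that scale in both genotypes and that of Cd99 in knockout cells, with log2 differences between 0.61 and 0.96 that kept their direction. Only Cd69 and Cd302 were called higher in both genotypes under every alternative tried.

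**Figure D1:**
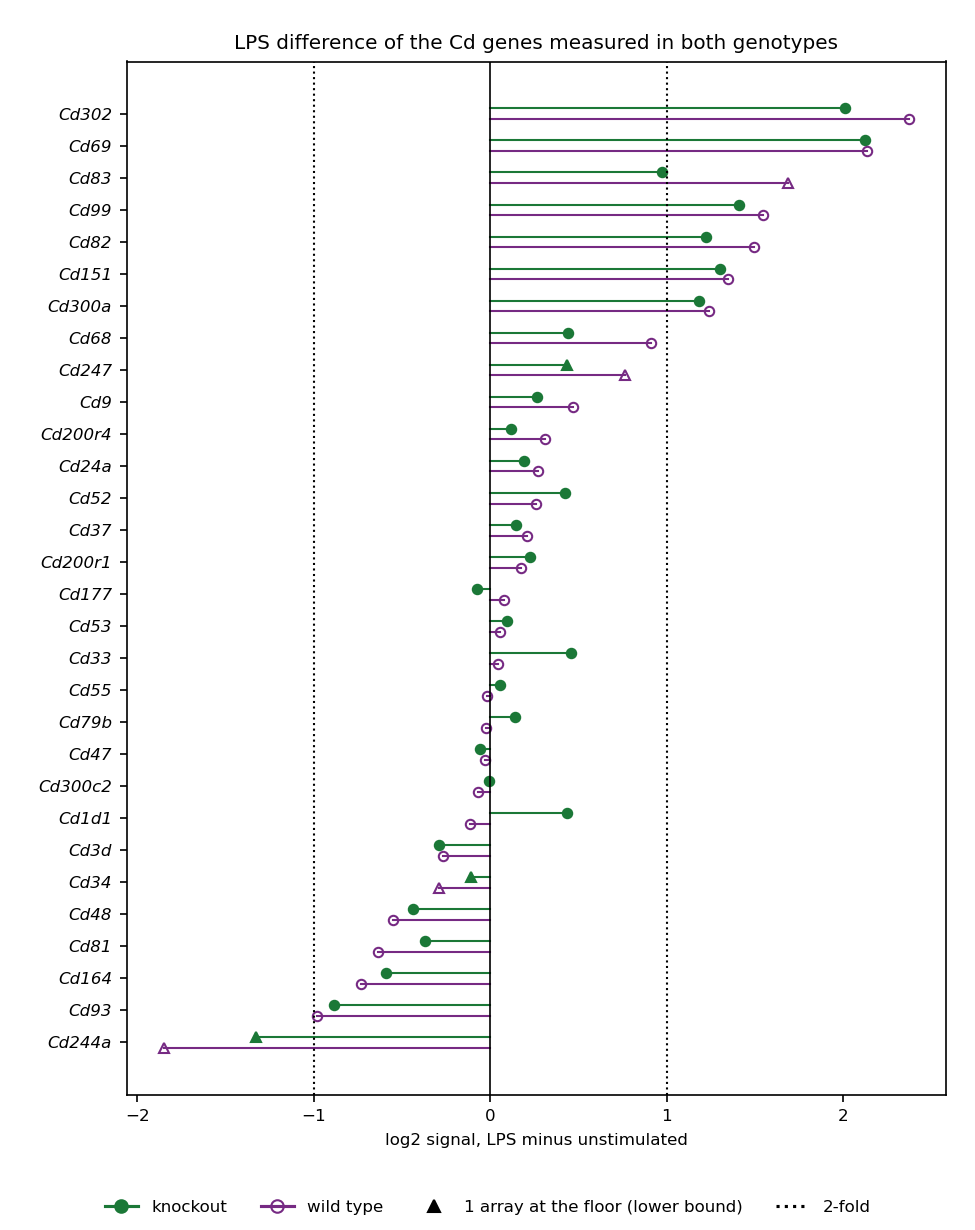
Log2 difference between the LPS and the unstimulated array for each of the 30 Cd genes measured in both genotypes, ordered by the wild-type value; filled green symbols are knockout, open purple symbols wild type, triangles are differences with 1 array at the floor, and dotted lines mark 2-fold. Each symbol is the difference of 2 single arrays, without error bars, and Cd302, Cd69, Cd99, Cd82, Cd151 and Cd300a lie beyond 2-fold on the higher side in both genotypes.

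Among genes of activation and costimulation, Cd69, a C-type lectin-like protein that appears early on activated leukocytes and keeps the sphingosine-1-phosphate receptor off the surface, had log2 signals of 12.55 in knockout and 12.59 in wild-type cells with LPS, against 10.43 and 10.45 without. The 2 LPS arrays lay close together and far above the 2 unstimulated ones, a 4.36-fold difference in knockout and a 4.39-fold difference in wild-type cells. Cd83, a surface protein of activated dendritic cells and other leukocytes, had 8.21 and 8.48 with LPS, against 7.24 in knockout and 6.49 in wild-type cells without. Because the last of these is under the floor, Cd83 was at least 3.22-fold higher in wild-type cells, while its 1.96-fold difference in knockout cells fell just short of the call and passed it under quantile normalization and median scaling (log2 1.19 and 1.08). Cd28, the costimulatory receptor of T cells, stayed near the floor on all arrays, between 6.56 and 7.31.

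Scavenger, lectin and lysosomal genes were led by Cd302. Cd302, a C-type lectin-like receptor of myeloid cells involved in adhesion and uptake, had log2 signals of 11.95 in knockout and 12.33 in wild-type cells with LPS, against 9.94 and 9.96 without, or 4.03-fold and 5.17-fold higher. Cd68, the lysosomal glycoprotein used as a macrophage marker, had 10.73 and 10.96 with LPS, against 10.29 and 10.05 without. Its log2 differences of 0.44 in knockout and 0.91 in wild-type cells were both short of 2-fold, the second passing it under median scaling (1.16). Cd320, the receptor for transcobalamin-bound vitamin B12, was above the floor only in unstimulated knockout cells (7.36).

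The tetraspanins are small proteins with 4 membrane-spanning segments that gather integrins, receptors and enzymes around them. Of 6 measured, 2 were called higher in each genotype and none lower. Cd82 had log2 signals of 13.17 in knockout and 13.47 in wild-type cells with LPS, against 11.95 and 11.97 without, or 2.33-fold and 2.82-fold higher. Cd151, a partner of laminin-binding integrins, had 9.82 and 9.99 with LPS, against 8.51 and 8.64 without, or 2.47-fold and 2.55-fold higher. For both, the LPS arrays lay above both unstimulated arrays. The Cd82 call ended in both genotypes in the mean over probe sets (0.9986 and 0.62), which takes in a second probe set under the floor. The Cd151 call ended there in knockout cells (0.63), and in wild-type cells when probe sets that can bind several transcripts were left out (0.80).

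The other 4 tetraspanins were neither. Cd9, a tetraspanin of platelets and many leukocytes, had log2 differences of 0.26 in knockout and 0.47 in wild-type cells, and Cd53, which is restricted to leukocytes, had 0.10 and 0.05 at signals from 14.24 to 14.34, while its dimmer second probe set gave -0.25 and -0.50. Cd37, another leukocyte tetraspanin, had 0.15 and 0.21. Cd81, part of the co-receptor complex of B cells and widely expressed, lay on the other side with -0.37 and -0.63. The family thus did not move as a block, its differences running from 1.29-fold lower to 2.47-fold higher in knockout and from 1.55-fold lower to 2.82-fold higher in wild-type cells.

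Of 4 adhesion, mucin and progenitor genes 1 was called higher in each genotype and 0 lower. Cd99, a small glycoprotein that takes part in leukocyte passage through endothelium, had log2 signals of 10.28 in knockout and 10.25 in wild-type cells with LPS, against 8.87 and 8.70 without, or 2.66-fold and 2.92-fold higher. Cd93, a lectin-like receptor of myeloid and endothelial cells, had 9.92 and 10.04 with LPS, against 10.81 and 11.02 without. Its differences of -0.89 and -0.98 were just short of 2-fold, with both LPS arrays below both unstimulated ones, and a second probe set gave -0.92 and -1.18. Another probe set of Cd93, above the floor only on the wild-type LPS array (6.99), gave a bound of 0.20 in wild-type cells. Cd164, a mucin of haematopoietic cells, had 13.52 and 13.39, against 14.11 and 14.12, again lower on both LPS arrays but by 1.51-fold and 1.66-fold only. Cd34, the sialomucin that marks haematopoietic progenitors, was above the floor only without LPS, at 6.90 in knockout and 7.09 in wild-type cells.

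Myeloid receptors of the immunoglobulin type and their ligands, a group in which the glycolipid-anchored Cd177 was also counted, were mostly level. Cd300a, an inhibitory receptor that binds lipids of dying cells, was the only one of 7 called in either genotype, with log2 signals of 11.94 in knockout and 12.15 in wild-type cells with LPS, against 10.76 and 10.92 without, or 2.27-fold and 2.36-fold higher. The call ended in the mean over probe sets in knockout cells (0.97). Its neighbour Cd300c2, an activating member of the same family on the same chromosome, 11, had differences of -0.01 and -0.07. Cd33, a sialic acid-binding lectin of myeloid cells, had 0.46 in knockout and 0.05 in wild-type cells, and its unstimulated knockout signal of 11.89 was the low value among 4, the others lying between 12.32 and 12.37.

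Cd177, the glycolipid-anchored neutrophil antigen that binds endothelial PECAM-1 and presents proteinase 3, held log2 signals from 14.37 to 14.46 on all 4 arrays. Cd47, the ligand of the inhibitory receptor SIRPα and known as a signal against engulfment, held 13.94 to 14.10 in its brightest probe set. Cd200r1, an inhibitory receptor, and its paired relative Cd200r4 differed by at most 0.31 between LPS and unstimulated cells. In sum 6 of these 7 genes had LPS differences between -0.08 and 0.46 in knockout cells and between -0.07 and 0.31 in wild-type cells.

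The small glycolipid-anchored proteins counted apart from Cd177 had no call in the probe sets read. Cd52, a short and heavily glycosylated peptide of leukocytes, had log2 signals of 15.34 in knockout and 15.20 in wild-type cells with LPS, against 14.91 and 14.94 without. Cd24a, a mucin-like antigen of granulocytes and other immature blood cells, had 15.15 and 15.19, against 14.96 and 14.92. Both lay slightly above their unstimulated values on both LPS arrays. Cd55, decay-accelerating factor, which protects cells from complement, held 9.53 to 9.59 in its brightest probe set. Another of its probe sets, above the floor on all 4 arrays, was lower with LPS, at -1.67 in knockout and -1.63 in wild-type cells. The remaining one was at 0.38 in knockout and 0.14 in wild-type cells.

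In the CD2 and SLAM family of adhesion and signalling receptors, 1 of the 2 measured genes was called lower after LPS in each genotype. Cd244a, a receptor of natural killer and myeloid cells whose ligand is Cd48, had log2 signals of 5.96 in knockout and 6.04 in wild-type cells with LPS, both under the floor, against 8.13 and 8.64 without. It was therefore at least 2.51-fold lower in knockout and at least 3.60-fold lower in wild-type cells. A floor at the 75th percentile ended the call in wild-type cells, leaving -0.10, and the mean over probe sets did so in knockout cells (-0.95). Cd48 itself had 9.60 and 9.17 with LPS, against 10.04 and 9.72 without, with log2 differences of -0.44 and -0.55 that were short of 2-fold.

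Of the 4 measured Cd genes of the B, T and NK lineages, 0 were called. Cd3d, a chain of the T cell receptor complex, had log2 signals of 9.35 and 9.66 with LPS in knockout and wild-type cells, against 9.64 and 9.92 without, although its partners Cd3e and Cd3g were under the floor, reaching at most 4.79 and 5.12. Cd79b, a chain of the B cell receptor, lay between 7.80 and 8.18, and its partner Cd79a reached at most 6.72, just under the floor, while Ighm, the heavy chain of IgM in the B cell marker list, had 14.42 and 14.58 with LPS and 14.23 and 14.29 without. The summed signal of the B cell list was 22938 and 25608 with LPS and 20296 and 20977 without, in knockout and wild-type cells. Cd247, the zeta chain of the T cell receptor that natural killer cell receptors share, was above the floor only with LPS, at 7.23 in knockout and 7.56 in wild-type cells, against 5.42 and 4.41 without. Its lower bounds of 0.44 and 0.76 were short of 2-fold, and the floor at the 50th percentile raised them to 1.295 and 1.62. Cd180, a relative of Toll-like receptors on B cells, exceeded the floor only in unstimulated wild-type cells (7.01). The only T cell marker above the floor was Zap70, a kinase of the T cell receptor, itself lower in knockout cells (-1.05 with LPS and -1.55 without), and the summed signal of that list was 358 and 543 with LPS and 377 and 823 without, in knockout and wild-type cells. What part cells of these types have in the signals was not tested.

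**Figure D2:**
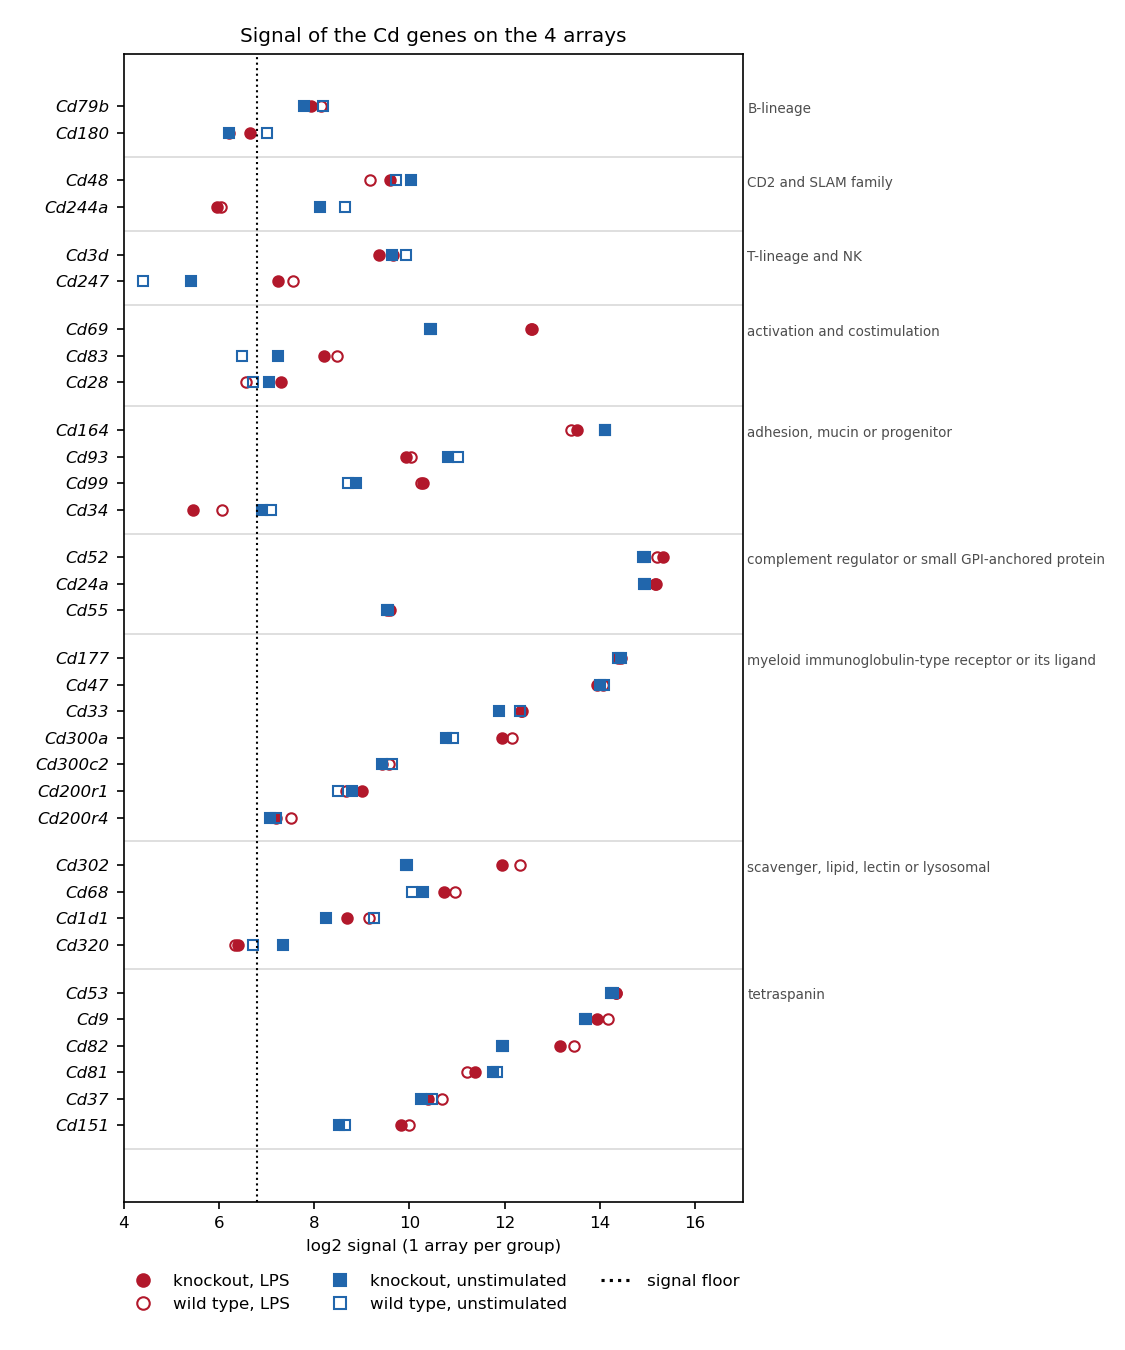
Log2 signal of the 33 Cd genes on the 4 arrays, in role groups and from the highest to the lowest mean within each; red circles are LPS, blue squares unstimulated, filled symbols knockout and open symbols wild type, and the dotted line is the signal floor of 6.80. Red and blue symbols separate for the genes called in both genotypes, Cd69, Cd302, Cd82, Cd151, Cd99, Cd300a and Cd244a. They also separate for others, such as Cd83, Cd247, Cd93, Cd34 and Cd164. Filled and open symbols of one colour lie close together for most genes.

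RefSeq promoter windows, from 250 bases before to 50 after each gene start, were matched for 23 of the 33 genes and for 5 of the 9 that were called in any comparison. All 9 windows of these 5 genes are shown, since the genes are part of the LPS result: Cd302, Cd82, Cd151 and Cd300a were called higher and Cd244a lower. Cd69, Cd83, Cd99 and Cd1d1 were also called but had no matched window, so the motif counts leave them out. Capitals mark matches, on either strand, to any of 6 motifs searched: GGG, any 2 bases and TTTCC for NF-kB, TGANTCA for AP-1, TGACGTCA for the cyclic AMP response element, GAAA, any 2 bases and GAAA for interferon response factors, GAGGAAG for PU.1 and TTGCNNAA for C/EBP. All 9 windows are in GRCm38.p6. Cd302 is chr2:60284435-60284734 on the minus strand. The windows of Cd82, also on the minus strand, are chr2:93452623-93452922, chr2:93461802-93462101, chr2:93462453-93462752 and chr2:93462901-93463200. Those of Cd151, on the plus strand, are chr7:141467112-141467411 and chr7:141468539-141468838. Cd300a is chr11:114889791-114890090 and Cd244a is chr1:171558943-171559242, both on the plus strand.
Cd302: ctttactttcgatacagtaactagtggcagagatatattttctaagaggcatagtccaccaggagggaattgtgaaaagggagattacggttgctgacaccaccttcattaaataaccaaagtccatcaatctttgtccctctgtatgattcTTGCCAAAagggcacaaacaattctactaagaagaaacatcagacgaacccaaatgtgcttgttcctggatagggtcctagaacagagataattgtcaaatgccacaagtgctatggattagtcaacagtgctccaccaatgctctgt
Cd82 window 1: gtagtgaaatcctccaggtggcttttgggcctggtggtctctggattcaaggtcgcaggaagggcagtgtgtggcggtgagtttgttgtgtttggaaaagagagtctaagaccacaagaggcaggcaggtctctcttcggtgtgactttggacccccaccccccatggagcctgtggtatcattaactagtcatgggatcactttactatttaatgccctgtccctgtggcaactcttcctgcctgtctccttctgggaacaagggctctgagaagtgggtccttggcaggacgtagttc
Cd82 window 2: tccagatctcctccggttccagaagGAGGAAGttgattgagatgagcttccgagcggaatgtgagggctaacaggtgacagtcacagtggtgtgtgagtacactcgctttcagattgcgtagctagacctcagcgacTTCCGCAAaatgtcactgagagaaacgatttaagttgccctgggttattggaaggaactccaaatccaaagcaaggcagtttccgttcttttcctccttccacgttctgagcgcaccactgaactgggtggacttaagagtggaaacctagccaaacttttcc
Cd82 window 3: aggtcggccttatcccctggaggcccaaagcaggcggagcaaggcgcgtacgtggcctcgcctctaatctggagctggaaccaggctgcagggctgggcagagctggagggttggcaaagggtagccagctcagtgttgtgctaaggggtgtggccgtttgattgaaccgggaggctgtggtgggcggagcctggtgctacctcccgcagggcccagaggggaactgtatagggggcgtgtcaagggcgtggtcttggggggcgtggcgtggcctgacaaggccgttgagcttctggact
Cd82 window 4: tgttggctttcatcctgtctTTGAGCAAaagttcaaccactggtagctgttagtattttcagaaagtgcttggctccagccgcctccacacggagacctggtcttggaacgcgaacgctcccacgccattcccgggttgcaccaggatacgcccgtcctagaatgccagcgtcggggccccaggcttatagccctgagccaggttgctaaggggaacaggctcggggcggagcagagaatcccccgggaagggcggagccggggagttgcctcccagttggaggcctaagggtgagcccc
Cd151 window 1: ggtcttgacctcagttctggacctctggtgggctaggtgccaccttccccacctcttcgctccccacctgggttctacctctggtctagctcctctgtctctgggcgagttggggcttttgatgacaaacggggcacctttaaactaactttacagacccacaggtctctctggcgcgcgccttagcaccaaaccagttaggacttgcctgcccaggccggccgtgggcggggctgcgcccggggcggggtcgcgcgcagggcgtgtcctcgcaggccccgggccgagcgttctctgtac
Cd151 window 2: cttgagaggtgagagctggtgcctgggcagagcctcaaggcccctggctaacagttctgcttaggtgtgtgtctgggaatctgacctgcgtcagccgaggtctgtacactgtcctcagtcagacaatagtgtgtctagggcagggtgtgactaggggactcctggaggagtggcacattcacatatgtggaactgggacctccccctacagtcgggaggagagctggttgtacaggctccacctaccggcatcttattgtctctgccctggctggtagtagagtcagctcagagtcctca
Cd300a: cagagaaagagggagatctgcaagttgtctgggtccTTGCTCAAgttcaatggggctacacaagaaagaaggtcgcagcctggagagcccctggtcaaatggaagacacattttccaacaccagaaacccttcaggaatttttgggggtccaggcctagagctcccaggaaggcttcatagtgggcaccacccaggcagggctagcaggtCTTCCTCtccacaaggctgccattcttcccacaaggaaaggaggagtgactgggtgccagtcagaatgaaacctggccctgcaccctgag
Cd244a: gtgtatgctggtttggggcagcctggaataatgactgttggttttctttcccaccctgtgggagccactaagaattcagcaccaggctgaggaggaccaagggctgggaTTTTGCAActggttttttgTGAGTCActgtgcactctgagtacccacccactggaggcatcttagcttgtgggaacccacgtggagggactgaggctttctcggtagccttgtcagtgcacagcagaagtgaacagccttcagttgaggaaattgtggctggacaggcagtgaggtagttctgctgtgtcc

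Of these 9 windows 5 held the C/EBP letters (2 of Cd82, and those of Cd302, Cd300a and Cd244a), 2 the PU.1 letters (Cd82 and Cd300a) and 1 the AP-1 letters (Cd244a), without overlap between motifs. Both windows of Cd151 and 2 of the 4 of Cd82 held none of the 6. Over the 30 windows of the Cd genes, C/EBP letters were in 8 (26.7%), PU.1 letters in 6 (20.0%) and AP-1 letters in 2 (6.67%), and the shares over all 32851 windows were 10.8%, 13.6% and 7.81%. Several windows of 1 gene are not independent. NF-kB letters were in the windows of Cd9 and Cd300c2, neither of which was called, and in 1.63% of all windows. Interferon response letters were in the window of Cd300c2 alone, overlapping its NF-kB match, and in 3.44% of all windows. The cyclic AMP response element was in 0 of 30, and in 1.79% of all windows.

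The responses of the 2 genotypes share no array and could be set side by side. Of the 30 Cd genes measured in both, 6 were called higher and 1 lower in both, and 26 had the same sign. These are 20.0%, 3.33% and 86.7% of the 30, where 5.57%, 5.89% and 82.6% of all genes measured in both did so. Cd244a and Cd34 exceeded the floor only on the unstimulated arrays and Cd247 only on the LPS arrays. Their shared sign was thus fixed by the floor, and the 1 gene called lower in both is Cd244a. All of them also enter the correlations across the 30 genes. Pearson's r between the 2 sets of LPS differences was 0.967 and Spearman's rho 0.902 across the 30 genes, and 0.892 and 0.832 across 9220 genes measured in both; genes are not independent replicates. The difference between the responses, knockout minus wild type, was taken for the 26 Cd genes above the floor on all arrays. It reached 2-fold higher in 0 and 2-fold lower in 0 of them, where the shares among 8156 genes were 1.01% and 0.65%. It ran from -0.47 for Cd68 to 0.55 for Cd1d1, and Cd33 followed with 0.41.

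The loss of miR-125a was accompanied by few differences among the Cd genes. With LPS, 0 of 29 measured were called higher and 0 lower in knockout against wild-type cells, where the shares among 9262 genes were 0.615% and 0.626%. Without LPS, 0 of 32 were called higher and 1 lower, where the shares among 9401 genes were 0.351% and 0.66%. The 1 called gene is 3.12% of the 32, too few to set against that share. The median differences were -0.12 with LPS and -0.03 without, against -0.01 and 0.00 for all genes.

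The 1 call was Cd1d1, which presents lipid antigens to natural killer T cells. It had log2 signals of 8.25 in knockout and 9.26 in wild-type unstimulated cells, a difference of -1.02 or 2.02-fold. With LPS it had 8.68 in knockout and 9.15 in wild-type cells, a difference of -0.47, so both knockout arrays lay below both wild-type arrays. Its second probe set gave -0.60 without and -0.36 with LPS, in the same direction and short of 2-fold. The call ended on the poly-A scale (-0.91), in the mean over probe sets (-0.81) and under a floor at the 75th percentile (-0.72). Markers of eosinophils, basophils and mast cells moved with genotype in the same direction. They summed to 1481 in knockout and 3514 in wild-type cells with LPS, and to 1762 in knockout and 4015 in wild-type cells without. All 4 of those measured without LPS were lower in knockout cells (Prg2, Mcpt8, Epx and Cpa3), Fcer1a, Ms4a2 and Ccr3 were under the floor, and their part in the Cd1d1 difference was not tested.

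**Figure D3:**
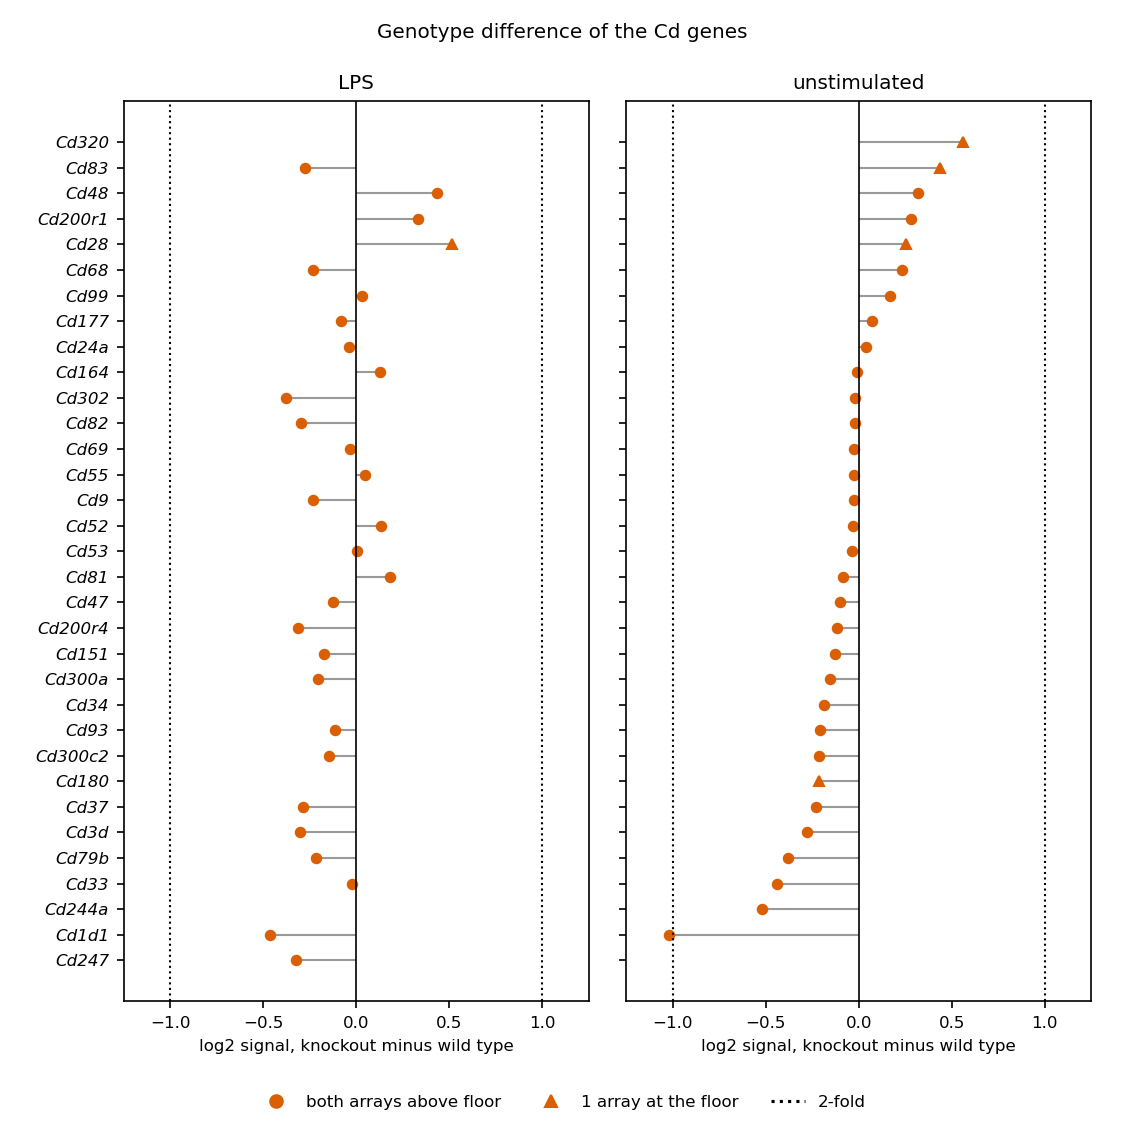
Log2 difference between knockout and wild type for the Cd genes, with LPS on the left and unstimulated on the right, ordered by the unstimulated value; triangles are differences with 1 array at the floor, dotted lines mark 2-fold, and a gene with both arrays at the floor has no symbol. Each symbol is the difference of 2 single arrays; Cd1d1 alone reaches 2-fold, without LPS.

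Of the 28 Cd genes measured in both conditions, 15 lay below 0 and 4 above 0 in both, and differences below 0 were found in 20 of 29 with LPS and 23 of 32 without. The share of all genes below 0 was not counted, and the signs depended on the scale. With poly-A scaling the Cd medians between genotypes were -0.05 with LPS and 0.08 without. Those of all genes were then 0.06 and 0.11. The 4 Cd genes above 0 in both conditions were Cd48, Cd200r1, Cd28 (bounds of 0.51 and 0.26) and Cd99 (0.03 and 0.17). Cd48 was higher in knockout cells with and without LPS, with log2 signals of 9.60 in knockout and 9.17 in wild-type cells with LPS and 10.04 and 9.72 without. Cd200r1 was likewise higher, by 0.33 with LPS and 0.28 without, and its second probe set gave 0.18 and 0.07. Among the 15 on the lower side were Cd3d (-0.30 and -0.28), Cd79b (-0.22 and -0.38) and Cd37 (-0.29 and -0.23), although the second probe set of Cd37 gave 0.04 with LPS. Cd244a had -0.52 without LPS. Among the SLAM family genes near Cd48 and Cd244a on chromosome 1, Cd84, kept out of the group by its rule, was lower in knockout cells with -1.04 with LPS and -1.18 without, and Ly9 was above the floor only in unstimulated knockout cells. No such difference has an error, and the central 68% of all measured genes lay within 0.25 between the 2 unstimulated arrays.

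Different probe sets of a gene were compared next. Of the 33 genes, 18 had more than 1 probe set, and 22 of their 33 further probe sets exceeded the floor on at least 1 array. All 3 probe sets of Cd99 were at least 2-fold higher with LPS in both genotypes, from 1.34 to 1.65 in knockout and from 1.0004 to 2.23 in wild-type cells. All 3 are of the kind that can bind several transcripts. The 5 of Cd151 above the floor were all higher, from 0.14 to 1.30 in knockout and from 0.35 to 1.67 in wild-type cells. The second probe sets of Cd300a (0.75 and 0.76) and Cd244a (bounds of -0.58 and -0.79) kept the direction and were short of 2-fold. Cd69 and Cd83 had 1 probe set each, and the second probe sets of Cd302 and Cd82 were under the floor.

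Cd55, Cd47 and Cd53 showed probe sets that disagreed in size or sign, and all 3 were singled out after their values were seen. Signs after LPS also differed for Cd200r1, at 0.23 and 0.17 in the probe set used and -0.02 and -0.13 in the other. In wild-type cells they differed for Cd37 (0.21 and -0.06) and for Cd93 (-0.98 and a bound of 0.20). One probe set of Cd55 had log2 signals of 7.96 in knockout and 8.197 in wild-type cells with LPS, against 9.64 and 9.83 without, differences of -1.67 and -1.63, whereas the other 2 lay between -0.02 and 0.38. For Cd47, the 2 further probe sets above log2 12 were lower with LPS, at -0.74 and -0.63 in knockout and -0.85 and -0.71 in wild-type cells, while the brightest stayed within 0.06 of 0. The remaining 2 gave -0.69 and -0.67 in knockout cells and 0.44 and -0.97 in wild-type cells, so all 5 lay below 0 in knockout cells and 4 of 5 in wild-type cells. The first of these 2 was 2-fold lower in knockout than in wild-type cells with LPS (-1.02) and at 0.12 without LPS. For Cd55 the sign after LPS depends on the probe set read, and for Cd47 mainly the size does.

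**Figure D4:**
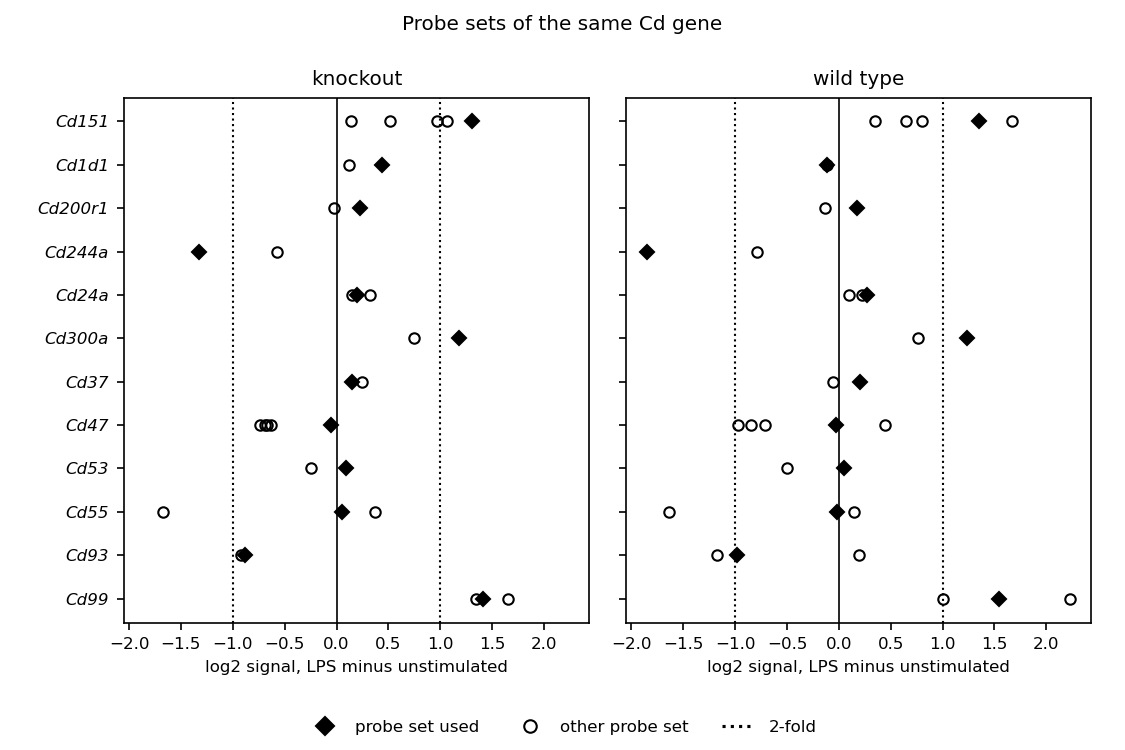
Log2 difference between the LPS and the unstimulated array for every probe set above the floor of the 12 Cd genes that have more than 1 such probe set, knockout on the left and wild type on the right; diamonds are the probe sets used for the gene, open circles the others, and dotted lines mark 2-fold. The probe sets of Cd99 all lie at or beyond 2-fold on the higher side, and 1 of the 3 of Cd55 lies apart from the others on the lower side.

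The 40 Cd genes that stayed under the floor on all arrays were mostly those of other cells. They included 13 scavenger, lipid and lectin genes such as Cd36, Cd163 and all 7 Cd209 genes, 9 T-lineage and NK genes such as Cd4, Cd8a and Cd3e, and 5 genes of costimulation such as Cd27 and Cd276. Just inside the rule were Cd180, Cd34 and Cd28, whose highest log2 signals were 7.01, 7.09 and 7.31, and just outside were Cd72, Cd79a and Cd59a with 6.72, 6.72 and 6.63. A gene under this floor may still be transcribed at a level that these arrays do not separate from background.

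Relatives under other names were counted in the same way. The shares of all measured genes to set beside them were 6.62% higher and 7.99% lower in knockout cells. In wild-type cells they were 7.29% and 9.69%. Of 12 measured tetraspanins named Tspan, 1 was called higher in each genotype, Tspan2 with 1.78 in knockout and 1.42 in wild-type cells, and Tspan13 was called lower in wild-type cells (-1.06). In the SLAM family and its adaptors, 1 of 4 measured in knockout cells was called higher, Slamf9 (bound of 1.05), and 0 of 2 in wild-type cells. Of 10 measured paired receptors of myeloid cells outside the rule, 3 were called higher in both genotypes, the inhibitory receptors Pilra (1.84 and 2.34) and Siglece (1.95 and 1.95) and the activating Pilrb1 (1.24 and 1.38). On the lower side were Pirb, an inhibitory receptor for class I molecules (-1.32 and -1.53), and Cd300ld (-1.07 and -1.35) in both genotypes, and Sirpb1a in knockout cells (-1.26). The CD300 family was thus not of one direction, Cd300a being higher, Cd300ld lower, and Cd300lb (-0.87 and -0.49) and Cd300lf (-0.45 and -0.71) short of 2-fold.

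Of 28 measured neutrophil CD molecules that carry other gene symbols, 5 were called higher and 3 lower in knockout and 6 higher and 2 lower in wild-type cells. Their counts on the lower side were near the shares of all genes (7.99% and 9.69%), and those on the higher side stand beside 6.62% and 7.29%. Icam1 (CD54), an integrin ligand, had 5.12 and 5.79, Sema4d (CD100), a semaphorin, had 2.45 and 2.52, and Il1r2 (CD121b), a decoy receptor for interleukin-1, had -3.05 and -2.95. None of the 28 was called between genotypes in either condition, none of the 12 tetraspanins, and none of the 10 paired receptors. Among all genes at most 0.66% were called between genotypes in either direction. Of the 8 measured Cd genes kept out by the rule, 3 were called higher and 1 lower after LPS in each genotype: Cd14, Cd40 and Cd274 on the higher side and Cd86 on the lower. Between genotypes, 1 of 8 was called lower in knockout cells with LPS and 1 of 7 without, Cd84 in both (-1.04 and -1.18).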

How the data were processed

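Biotin-labelled cRNA of 4 pooled RNA samples was hybridised to 4 Affymetrix mouse expression arrays, 1 for each group, so grouping followed the labels and no sample was averaged. The deposited values are log2 signals, and the submitters' processing notes name MAS5 without a version. Unlogged, the 4 arrays had trimmed means (2% removed at each end) of 500.003 to 500.004, so each had been scaled to one target. MAS5 scatters widely at low signal, and 298 to 428 probe sets per array are listed at 0. Arrays have no read depth.

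Of 45101 probe sets, 34945 had 1 gene symbol in the platform annotation and were not among the 64 controls. All 33 members matched the GRCm38.p6 gene table by Entrez identifier, with 33 symbols unchanged. Values under the floor were set to it, and a gene counted as measured where either array of a pair exceeded it. Where the other array was at the floor, the difference bounds the true one from below. Differences are LPS minus unstimulated or knockout minus wild type. With 1 array per group no p-value was computed. Calculations used Python 3.11.15, pandas 2.3.3, numpy 2.4.6 and scipy 1.17.1. The calling steps were run on simulated arrays whose changes lay well beyond the 2-fold call, in genes well above the floor. That run does not show how calls behave near 2-fold or near the floor. Alternatives were 3 scalings, 3 floor settings, 2 choices of probe set and a 1.5-fold call. The members, roles, lists and motifs were chosen with earlier results of these data known. All members called in any comparison are named, with the 3 highest means of each role group among the rest, and for the related lists at most the 4 largest differences; genes named outside this rule, such as partners of a receptor chain, were added for context.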

Additional observations from a re-analysis of the deposited data

How the results depend on the processing

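Every called difference of a Cd gene kept its direction under every alternative that gave a value, and Cd69 and Cd302 in both genotypes and Cd83 and Cd99 in wild-type cells kept their calls after LPS under all of them. Median scaling and quantile normalization moved no count by over 1.5 times. Under poly-A scaling the counts after LPS were 2 higher and 4 lower in knockout and 4 higher and 5 lower in wild-type cells (all genes: 324 and 2385 of 9787, and 348 and 2271 of 9571), the medians were -0.40 and -0.36, and 0 genes were lower in unstimulated knockout cells; Cd93, Cd164 and Cd48 were then called lower in both genotypes and Cd81 in wild-type cells. In the mean over probe sets 3 of 30 Cd genes were higher and 0 lower in knockout cells after LPS (all genes: 6.15% and 7.62%). In that setting 0 were lower in unstimulated knockout against wild-type cells (all genes: 0.665%).

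With the floor at the 75th percentile 0 were lower after LPS in knockout and 0 in wild-type cells (all genes: 5.92% and 7.56%). Between genotypes without LPS 0 were called, where 0.162% of all genes were higher and 0.25% lower. With the floor at the 50th percentile 2 were lower in wild-type cells after LPS (all genes: 10%), and the responses differed 2-fold for 1 gene in each direction. With no floor 2 were lower in knockout and 2 in wild-type cells after LPS (all genes: 10.5% and 12.3%). In unstimulated knockout cells 1 was then higher (all genes: 1.5%), and the responses differed for 1 gene higher and 2 lower. For the difference between responses the share of all genes was not counted in these settings. A 1.5-fold call gave 7 higher and 3 lower in knockout and 9 higher and 4 lower in wild-type cells after LPS (13.8% and 19.2% of all genes in knockout, 15.8% and 21.0% in wild-type cells). Cd99 gave no value once probe sets that can bind several transcripts were left out, since all 3 of its probe sets are of that kind. The causes were not tested. No paired analysis was possible because each group holds 1 array.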

Other observations

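Both probe sets annotated to Cd55b together with another gene were left out of the gene results, and both stayed under the floor on all 4 arrays, at no more than log2 4.55 and 5.03. Of the 33 Cd genes, 29 were above the floor on the knockout LPS array, 28 on the wild-type LPS array, 31 on the unstimulated knockout array and 29 on the unstimulated wild-type array.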
